A study of Mus musculus with 2 samples.

Results

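The 47 genes described here encode the subunits of the glutamate and GABA receptors, through which neurons receive their main excitatory and inhibitory signals. They were taken from the RNA library by name alone: every gene called Gria, Grik, Grid, Grin, Grm, Gabra, Gabrb, Gabrg, Gabrr or Gabbr with a subunit number, with Gabrd, Gabre, Gabrq and Gabrp, 47 of 32285 genes in all. Of these, 26 encode glutamate receptors and 21 encode GABA receptors. The samples were brain tissue of mouse embryos at E18.5 (late gestation), of the C57BL/6 strain and homozygous for a Ctcf mutation, named in the labels as CTCF-R567W and introduced with CRISPR/Cas9. SPARC-seq gave 1 RNA library and 1 chromatin accessibility (ATAC) library. The labels give neither the number of embryos nor their sex, and no wild-type library was analysed here, so nothing below measures an effect of the mutation. With 1 library per assay there is no replicate: all intervals are 95% intervals for counting error only, and no test between groups was possible.

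AMPA, kainate and NMDA receptors are ion channels built from several glutamate-receptor subunits each, and the delta subunits are their relatives, known as binding partners of secreted synapse organisers. Metabotropic glutamate receptors (Grm genes) signal through G proteins. GABA-A receptors are chloride channels assembled from alpha, beta, gamma and rarer subunits, and GABA-B receptors pair Gabbr1, which binds GABA, with Gabbr2, which couples to the G protein. In the immature brain GABA often depolarises neurons, because the chloride importer Slc12a2 is active before the exporter Slc12a5 has reached its adult level.

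The barcodes formed a grid of 2 segments and were read as spots. A spot is a small piece of tissue and may contain several cells, or parts of them. The 1992 spots kept had 907 to 12442 unique molecular identifiers (UMIs, counts of RNA molecules; median 4157) and 5759 to 87572 ATAC fragments (median 21705). All 12 genes of a neuron list had UMIs and summed to 5528 CPM (UMIs scaled to a total of 1000000), so the defining neuronal genes were present, as was each gene of the radial glia list, at 1185 CPM in sum. Other tissues were present too: a list of 20 skeletal muscle genes summed to 7554 CPM, all 20 with UMIs, and a pituitary list of 10 genes to 268 CPM, with Fshb at 0.

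The promoters that the results turn on are shown first, as the 200 bases before the transcription start in RefSeq (mouse build GRCm38.p6), written 5′ to 3′ on the strand of the gene with every CpG in capitals. Of the 47 members, 32 were matched in the sequence table. Gabbr1 (chr17:37045766-37045965, plus strand) and Gria2 (chr3:80802836-80803035, minus strand) had the most promoter fragments of all members around the 1 start used per gene. With the annotated start of most fragments taken for each gene, Gabbr1 had 445, Grin2b 419 and Gria2 412. Gabra2 (chr5:71095850-71096049, minus strand) and Gabrg1 (chr5:70842618-70842817, minus strand) are neighbours in a gene cluster and differed in RNA. Gabra6 (chr11:42321073-42321272, minus strand) was the least expressed member. The number of CpGs was 16, 19, 14, 0 and 2 in the order printed.
Gabbr1: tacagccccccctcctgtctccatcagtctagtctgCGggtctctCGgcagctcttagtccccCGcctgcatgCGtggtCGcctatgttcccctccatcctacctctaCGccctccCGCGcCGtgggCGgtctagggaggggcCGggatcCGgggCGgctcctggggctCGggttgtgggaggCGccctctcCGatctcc
Gria2: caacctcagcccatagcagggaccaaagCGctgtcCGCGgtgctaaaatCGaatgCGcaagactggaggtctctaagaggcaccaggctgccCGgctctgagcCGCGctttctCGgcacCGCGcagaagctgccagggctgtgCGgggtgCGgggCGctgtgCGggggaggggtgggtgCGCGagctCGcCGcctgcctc
Gabra2: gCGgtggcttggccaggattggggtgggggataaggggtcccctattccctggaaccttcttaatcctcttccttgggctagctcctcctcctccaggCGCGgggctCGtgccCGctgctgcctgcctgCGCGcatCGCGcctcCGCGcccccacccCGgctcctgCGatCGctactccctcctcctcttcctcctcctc
Gabrg1: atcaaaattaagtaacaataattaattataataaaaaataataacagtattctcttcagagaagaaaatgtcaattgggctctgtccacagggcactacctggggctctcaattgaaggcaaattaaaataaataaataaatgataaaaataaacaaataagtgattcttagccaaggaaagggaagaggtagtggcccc
Gabra6: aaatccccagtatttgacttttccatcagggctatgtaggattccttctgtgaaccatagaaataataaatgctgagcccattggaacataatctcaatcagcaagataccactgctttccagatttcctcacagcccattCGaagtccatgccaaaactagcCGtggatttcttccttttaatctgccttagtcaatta

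Which receptor subunits were expressed at E18.5 was the first question. All 47 genes had at least 1 UMI, 35 had 100 or more, and the other 12 had 1 to 39. Together they held 74771 of 8711132 UMIs, or 8583 CPM (8522 to 8645). A median spot carried 35 UMIs of receptor genes from 18 different subunits, and no spot had fewer than 3. Glutamate receptors supplied 78.1% of these UMIs (exact binomial interval 77.8 to 78.4) and GABA receptors 21.9%. By family, NMDA receptors held 18.7%, metabotropic glutamate receptors 17.2%, GABA-A receptors 16.1%, AMPA receptors 15.9%, kainate receptors 15.7% and GABA-B receptors 5.87%. The intervals of the GABA-A, AMPA and kainate shares overlapped, so that these 3 families cannot be ranked. The family shares and the glutamate and GABA split count UMIs only. They were not worked out per kb of exons or of gene span (introns included), where the order of families may differ. Per 100 kb of span, Gabbr1 had the highest level of all members, at 977 CPM, against 241 CPM for Grin2b.

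**Figure D1:**
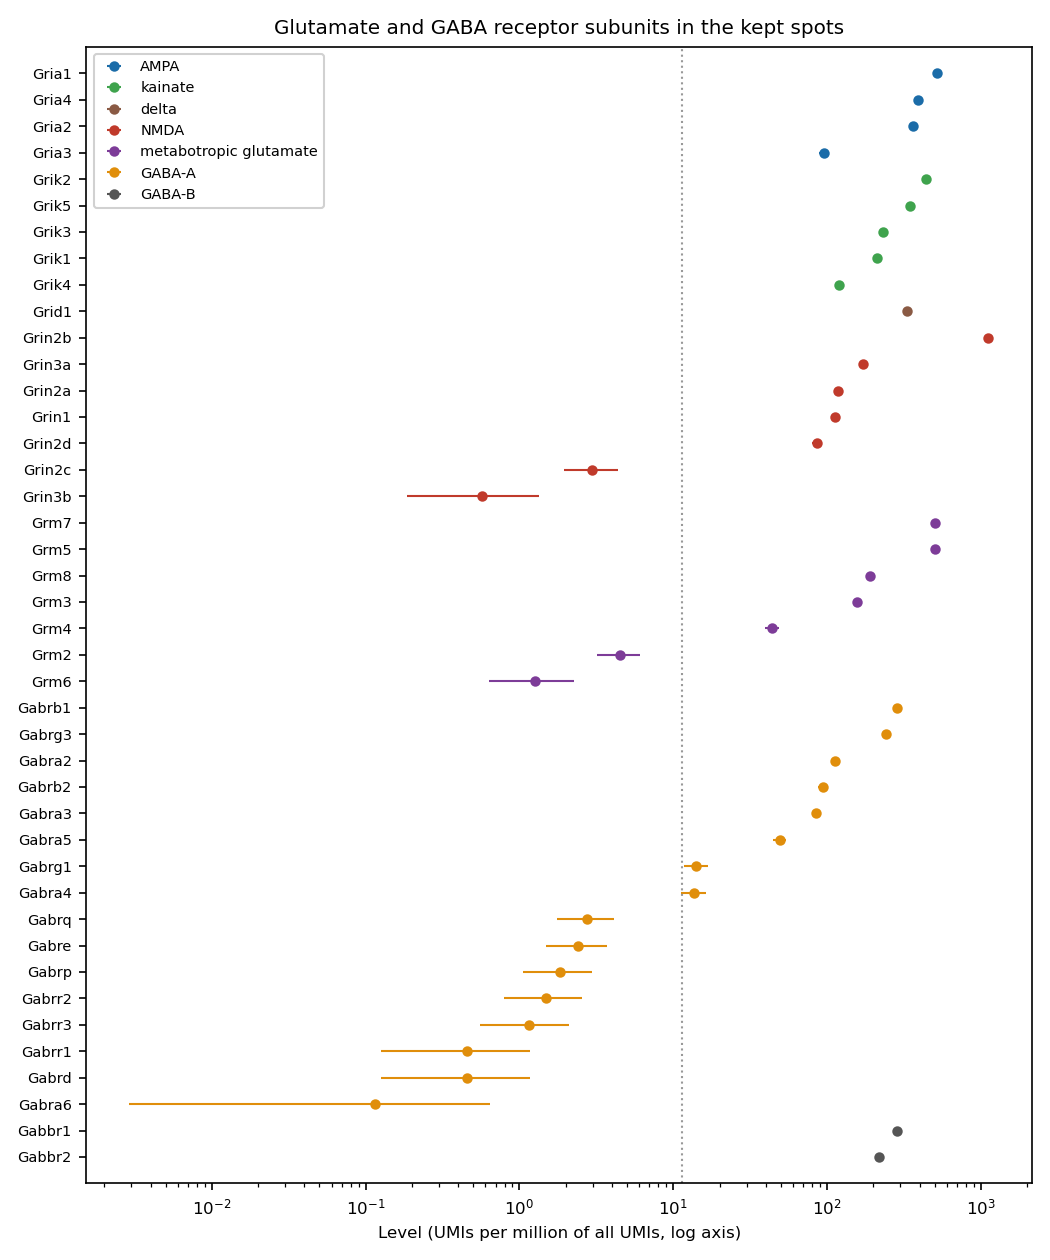
Level of 42 receptor subunits in the RNA library, in CPM on a log axis, ordered within families by level. Points are levels, bars are exact Poisson intervals and the dotted line marks 100 UMIs; 12 members lie to its left, with Gabra6 the lowest at 0.115 CPM, and Grin2b is the highest at 1109 CPM.

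The members were long genes. The median span of the 35 with 100 or more UMIs, introns included, was 278 kb, against 32.3 kb for all protein-coding genes with that many UMIs. Across these 35 members, the Spearman rho of UMIs with span was 0.58 and with exon length 0.30, and over those 10294 coding genes the same correlations were 0.26 and 0.22. With the 12 scarce members included, rho was 0.79 for span and 0.67 for exon length. These are descriptions across genes of 1 library, which are not independent. The main classes below are given as a share of UMIs, per kb of exons and per kb of gene span. Of the 10 members with most UMIs, 7 were also among the top 10 per kb of exons and 5 among the top 10 per kb of span.

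The NMDA receptors were led by Grin2b, the modulatory subunit known to prevail in the embryonic brain, at 1109 CPM (1087 to 1131), with a UMI in 95.7% of spots. Among the 4 Grin2 genes Grin2b held 84.2% of UMIs, 68.9% of UMIs per kb of exons and 51.2% per kb of span, the largest share on each scale. Grin2a, which typically rises after birth, gave 118 CPM and 8.97% of UMIs. Grin2d, a subunit of immature and inhibitory neurons, gave 86.3 CPM, and its share rose from 6.56% of UMIs to 20.02% per kb of exons and 39.4% per kb of span. Grin2c, known mainly from the mature cerebellum, had 26 UMIs. Grin1, the subunit that every NMDA receptor needs, was at 112 CPM, far fewer UMIs than Grin2b, but at 401 CPM per 100 kb of span it stood above Grin2b at 241. On the exon scale the order was the other way, 11.6 CPM per kb for Grin1 and 44.6 for Grin2b. Grin3a, a subunit of juvenile receptors with low calcium flow, was at 172 CPM, and its relative Grin3b had 5 UMIs. Grin3b overlaps Tmem259 on the other strand, and since the strand setting of the counting is not given in the sources used here, its UMIs are uncertain. The same holds for Grin2d, which overlaps Kdelr1 on the other strand. Grin3a encloses Ppp3r2 on its own strand, but the same-strand genes within it had 5 UMIs against the 1498 of Grin3a.

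All 4 AMPA receptor genes were expressed. Gria1 gave 518 CPM (503 to 534), Gria4 391.6 CPM (379 to 405), Gria2 362 CPM (350 to 375) and Gria3 95.5 CPM. Gria1 led the class by UMIs with 37.9% and per kb of exons with 47.4%, whereas per kb of span Gria2, the subunit that makes the channel impermeable to calcium, led with 49.8%. Gria3 was last on all 3 scales, with 5.36% to 6.98%.

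Among kainate receptors, Grik2 gave 438 CPM, Grik5 349 CPM, Grik3 230 CPM, Grik1 211 CPM and Grik4 121 CPM. Grik2 led by UMIs with 32.5%, but Grik5, a high-affinity subunit that works only together with Grik1 to Grik3, led per kb of exons with 38.0% and per kb of span with 69.3%. The delta subunit Grid1 gave 332 CPM (320 to 344), or 55.6 CPM per kb of exons.

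Among metabotropic receptors, Grm3 and Grm7 led their groups on every scale. In group I, which couples to phospholipase C, Grm5 gave 501 CPM (486 to 516). In group II, which lowers cyclic AMP, Grm3 gave 157 CPM and 65.5% to 98.3%, while Grm2 had 39 UMIs. In group III, made mostly of presynaptic receptors, Grm7 gave 501 CPM and 42.2% to 76.0%, followed by Grm8 at 191 CPM and Grm4 at 43.9 CPM. Grm6, known from the retina, had 11 UMIs.

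The 19 GABA-A genes included 11 with at least 100 UMIs. Of the beta subunits, which complete the GABA binding site, Gabrb1 gave 283 CPM (272 to 295) and Gabrb2 93.7 CPM. Alpha subunits were spread over several genes: Gabra2 gave 112.5 CPM, Gabra3 85.4 CPM, Gabra5 49.4 CPM and Gabra4 13.5 CPM. Gabra2, Gabra3 and Gabra5, the alpha subunits typical of the embryonic brain, held 39.1%, 29.7% and 17.2% of alpha UMIs. Per kb of exons Gabra3 led with 36.9%, followed by Gabra5 with 28.1% and Gabra2 with 24.9%. Gabra5 overlaps a protein-coding gene on the other strand, and the strand setting is not given, so that its level and shares are uncertain. Of the gamma subunits, Gabrg3 gave 241 CPM (231 to 251) and Gabrg1 gave 14.1 CPM (11.7 to 16.8).

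The other 8 GABA-A genes were near the lower limit of this depth. Gabrq had 24 UMIs, Gabre 21, Gabrp 16, Gabrr2 13, Gabrr3 10, Gabrr1 4 and Gabrd 4. Gabra6, the alpha subunit of mature cerebellar granule cells, had 1 UMI in 1 spot, an upper bound of 0.640 CPM. The rho subunits Gabrr1 to Gabrr3 are known from the retina, and Gabrd from extrasynaptic receptors of mature neurons. Both GABA-B genes were expressed: Gabbr1 gave 284 CPM and Gabbr2 219 CPM. Their shares were 56.5% and 43.5% of UMIs and 52.8% and 47.2% per kb of exons, but Gabbr1, a short gene, took 93.6% per kb of span.

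**Figure D2:**
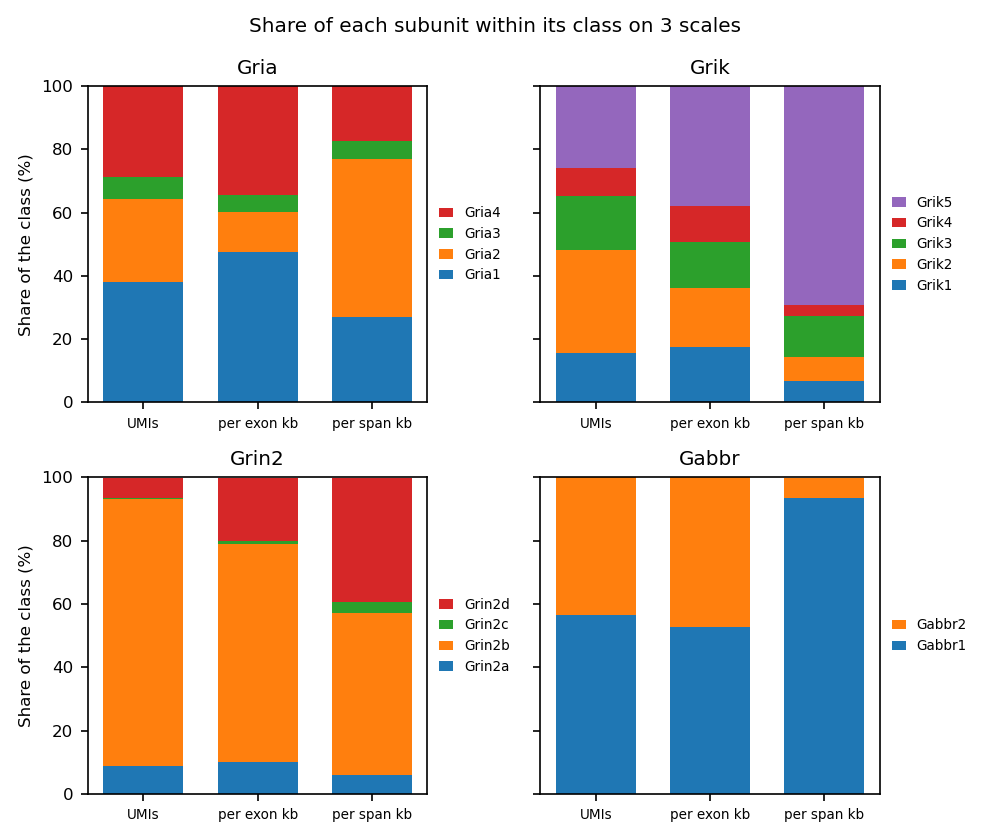
Share of each subunit within 4 receptor classes, in percent, as UMIs, as UMIs per kb of exons and as UMIs per kb of gene span. Grin2b and Gabbr1 are the largest part on all 3 scales, whereas the largest part of the Gria and Grik classes changes with the scale.

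Many GABA-A genes lie in 4 clusters of neighbouring genes, of which 2 are given here. Neither of them was the cluster with the largest share of GABA-A UMIs. The chromosome 5 cluster (Gabrg1, Gabra2, Gabra4 and Gabrb1, chr5:70751047-72149037) held 30.7% of GABA-A UMIs, and the X chromosome cluster (Gabre, Gabra3 and Gabrq, chrX:72255999-72842602) 6.57%. Within both clusters the members ranged widely, from 118 UMIs for Gabra4 to 2468 for Gabrb1 on chromosome 5 and from 21 for Gabre to 744 for Gabra3 on the X chromosome. Gabra4 overlaps Gabrb1 on the opposite strand, so that reads of this pair may have been split.

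How evenly the members were spread over the spots was measured by an index of dispersion, which is about 1 when a gene follows the total UMIs of the spots. The index reached 1.1 in 5 of the 35 members with 100 or more UMIs, against 8.02% of all such genes. They included Grin2b at 1.14, Grm8 at 1.12, Grm5 at 1.11 and Grin3a at 1.103. All 5 were among the 22 members with at least 1000 UMIs, and 15% of all genes at that depth passed the same limit. The median was 1.04 in members and 1.02 in all genes. In the remaining spots alone, defined next, 2 of 33 members passed, against 7.77% of all genes with 100 or more UMIs there, so that in them the members did not exceed the background.

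The spots were grouped into regions by clusters of their RNA, made without the receptor genes and the pathway genes below, and each region was called by a gene among its 10 leading genes by fold. The Myh3 region (embryonic myosin, with Car3 as the first gene) had 254 spots, the Gh region (growth hormone) 303 and the Wfdc2 region (a secretory epithelial gene) 39, which left 1396 remaining spots. The muscle list was at 17841 CPM in the Myh3 region and at 5457 CPM in the remaining spots, and the fibroblast list at 3596 and 974 CPM, so that the regions differed in degree and muscle RNA was found in both. The neuron list was at 3893 CPM in the Myh3 region and 6021 CPM in the remaining spots. Median depth was 4728 and 4066 UMIs, and 38769.5 and 20405 fragments. The part of these differences in the results below was not tested.

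Receptor RNA was higher in the remaining spots, at 9115 CPM against 6809 CPM in the Myh3 region, a ratio of 1.34 (conditional binomial interval 1.31 to 1.37). The neuron list had a ratio of 1.55 (1.502 to 1.59). All 35 members with 100 or more UMIs had a ratio above 1, as did 55.3% of all genes, and the median was 1.36 in members and 1.03 in all genes. A ratio of at least 1.5 was reached by 7 of the 35 members, against 7.88% of all genes, and none fell to 1/1.5 or below, against 9.04%. In spots, fewer neurons and less RNA per neuron cannot be told apart.

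The 7 genes came from several families. Grin1 gave 125 CPM in the remaining spots and 73.3 CPM in the Myh3 region, a ratio of 1.70 (1.38 to 2.13). Gabbr1 gave 311 and 188 CPM, a ratio of 1.66 (1.45 to 1.90). Further ratios were 1.65 for Gabra3, 1.59 for Grm3, 1.55 for Grin3a and 1.52 for Grm4. All 7 intervals overlapped 1.5, so that the limit itself divided genes that counting error does not separate: Gria4 at 1.48 and Gabra4 at 1.48 lay just under it. The ratio of Grik3 was 1.06 (0.935 to 1.21), near the low end. By family the ratio ranged from 1.31 for metabotropic receptors to 1.45 for GABA-B receptors, and the intervals of all 7 families overlapped. Of the members under 100 UMIs, Gabrp, known from epithelia, and Gabre had ratios of 0.126 (0.0270 to 0.495) and 0.276 (0.0979 to 0.803), on 16 and 21 UMIs in all. In the Wfdc2 region Gabrp was at 16.2 CPM and Gabre at 8.09 CPM, on 4 and 2 UMIs. In the Myh3 region they were at 5.35 and 6.11 CPM, on 7 and 8 UMIs. Against the Gh region the summed ratio was 1.09, with none of the 35 members past 1.5-fold higher (2.86% of all genes) or lower (3.29%). Against the Wfdc2 region the summed ratio was 1.42 (1.35 to 1.497), with all members at 6404 CPM there, so that the lower level was not particular to the Myh3 region.

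**Figure D3:**
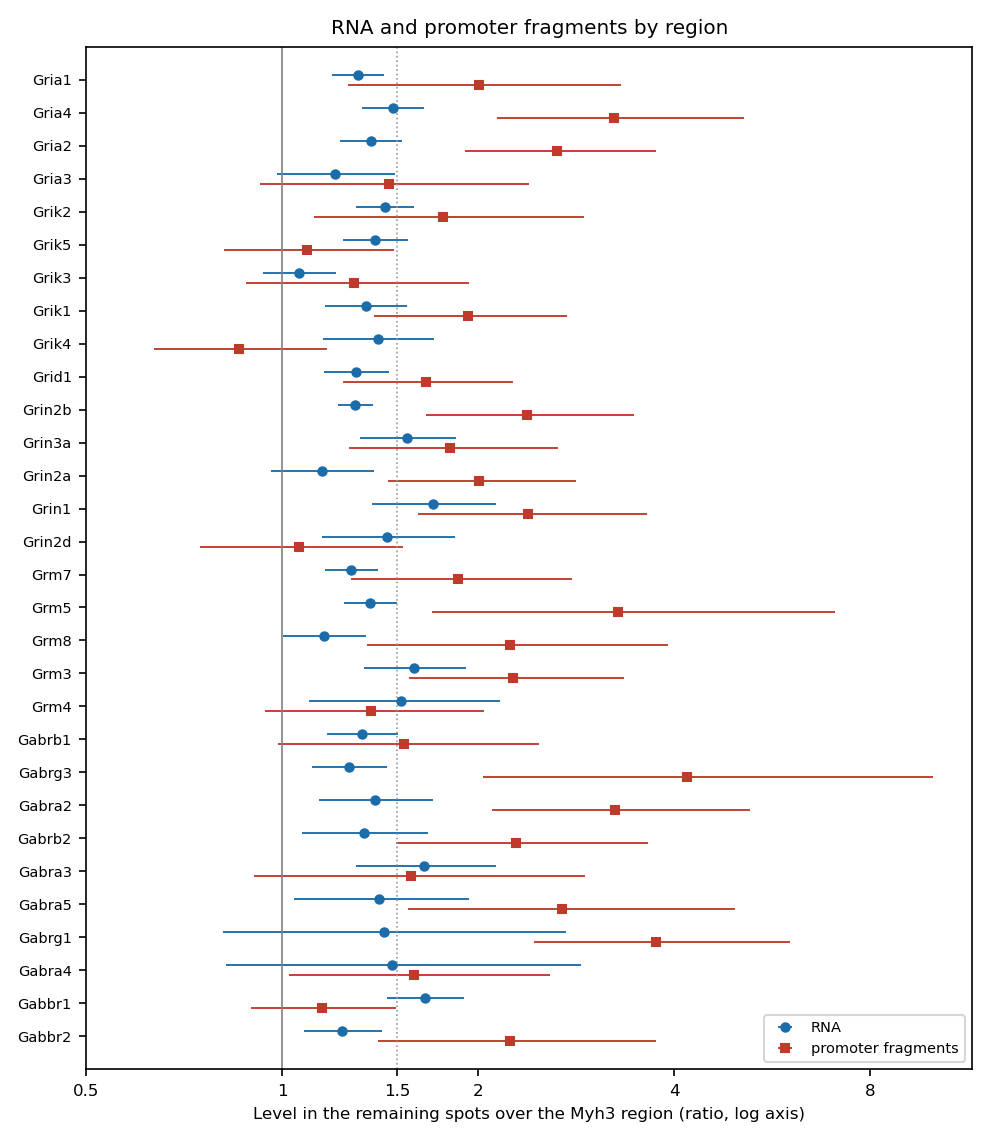
Ratio of the level in the remaining spots to that in the Myh3 region for 30 members with at least 100 UMIs, for RNA (circles) and promoter fragments (squares), on a log axis with conditional binomial intervals. The RNA ratios lie between 1.06 and 1.70, while promoter ratios reach 4.19 at Gabrg3 and fall below 1 at Grik4 (0.859).

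Chromatin accessibility took no part in the clustering and was compared over the same regions. Fragments within 1 kb of the start sites of all members were 1654 per 1000000 promoter fragments of all genes in the remaining spots and 959 in the Myh3 region, a ratio of 1.72 (1.62 to 1.83). The ratio of the neuron list was 2.63 (2.34 to 2.97). Lists of GABAergic and of glutamatergic neuron genes had no such rise at promoters, with 1.12 (0.971 to 1.29) and 0.910 (0.774 to 1.07). In RNA, however, both lists were higher in the remaining spots, with ratios of 1.41 (1.24 to 1.60) and 1.18 (1.09 to 1.29). Of the 38 members with at least 100 promoter fragments, 36 had a ratio above 1, against 49.6% of protein-coding genes, and 27 reached 1.5, against 11.8%. In the other direction 1 member, Grin3b, passed the limit with 0.517 (0.355 to 0.757), against 11.8% of coding genes. The median ratio was 1.96 in members and 0.996 in coding genes.

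Promoter ratios ranged more widely between members than RNA ratios did, but on fewer counts. In the Myh3 region Gabrg3 had 8 promoter fragments against 264 UMIs, and Grm5 had 10 against 515. How much counting error widened the range of promoter ratios was not tested. High ratios were those of Gabrg3 with 4.19 (2.04 to 10.002), Gabrg1 with 3.75 (2.44 to 6.03), Grm5 with 3.28 (1.70 to 7.07), Gabra2 with 3.24 (2.10 to 5.23) and Gria4 with 3.24 (2.14 to 5.12). At the other end were Gabbr1 with 1.15 (0.896 to 1.495), Grik5 with 1.09 (0.812 to 1.49), Grin2d with 1.06 (0.747 to 1.53) and Grik4 with 0.859 (0.636 to 1.17). By family the ratio was 2.40 (1.97 to 2.95) for AMPA receptors, 2.01 (1.79 to 2.26) for GABA-A receptors, 1.37 (1.102 to 1.72) for GABA-B receptors and 1.28 (1.11 to 1.496) for kainate receptors. The AMPA and GABA-A intervals lay above the kainate and GABA-B intervals. Over the 34 members with enough UMIs and fragments, rho between promoter and RNA ratios was -0.12. It was 0.36 over the 9627 coding genes with as many of both, which is not a like comparison. The RNA ratios of the members lay between 1.06 and 1.70, while 9.04% of all genes with 100 or more UMIs were at 1/1.5 or below. The part of this narrow range and of counting error in the low rho was not tested. The promoter ratio was the larger of the pair in 29 of the 34 members, against 50.2% of the 9627 coding genes. The same held for the neuron list, with 2.63 at promoters and 1.55 in RNA, and for glycine receptor genes, with 1.84 and 1.25. It did not hold for the GABAergic list, with 1.12 and 1.41, or the glutamatergic list, with 0.910 and 1.18. Gabrg3 is an example of the 29, with 1.27 in RNA and 4.19 at the promoter, and Gabbr1 an exception, with 1.66 and 1.15. Against the Gh region 9 of 38 members had promoter ratios of at least 1.5 (4.75% of coding genes) and 1 fell to 1/1.5 or below (4.29%).

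The number of promoter fragments in all kept spots was close to that of other genes. The median member had 165 fragments, against 160 for 21625 protein-coding genes, and 53.2% of members lay above that median. Gabbr1 had 419 fragments (380 to 461), Gria2 382 (345 to 422), Grid1 354, Grin2a 339 and Grin2b 309. Gabra6 had the fewest, 23 (14.6 to 34.5), followed by Gabrr1 with 43, Gabrr3 with 49 and Gabrr2 with 51. Across all 47 members UMIs and promoter fragments had a rho of 0.59, against 0.48 over all genes with at least 10 UMIs. Among the 35 members with 100 or more UMIs it was 0.20, and 0.13 over all genes with that many. These correlations are across genes of the same libraries, which are not independent. A gene can have several annotated starts, and near another start of the same gene fragments were up to 1.65 times as many, as at Grm8.

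UMIs and fragments differed in rank for several members. Grm5 was the fifth by UMIs (4363) but had 109 fragments (89.5 to 131), and Grm2 had 196 fragments with 39 UMIs. Gabrg1, whose sequence is printed above, had 296 promoter fragments (263 to 332), at percentile 72.3 of coding genes, with 123 UMIs. Its neighbour Gabra2 had 262 fragments with 980 UMIs, and Grik5 had the same 296 fragments with 3039 UMIs. The insertions of the transposase were not placed alike. Within -200 to 50 bp of the start, Gabbr1 had 339 insertions, Gria2 310 and Gabra2 90, but Gabrg1 had 2. Instead Gabrg1 had 393 insertions from -1000 to -200 bp and 144 from 200 to 1000 bp. The 200 bases printed for Gabrg1, which have no CpG and 31.5% G and C, fall in this gap, while the CpG-rich sequences of Gabbr1 (69% G and C), Gria2 (68.5%) and Gabra2 (68%) lie under insertions. Gabra6, with 40.5% G and C, had 14 insertions in the same window. This is a description of 5 promoters: a check of base composition over the members is void here, since 32 of the 47 (68.1%) had a matched sequence and the others would be left out.

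**Figure D4:**
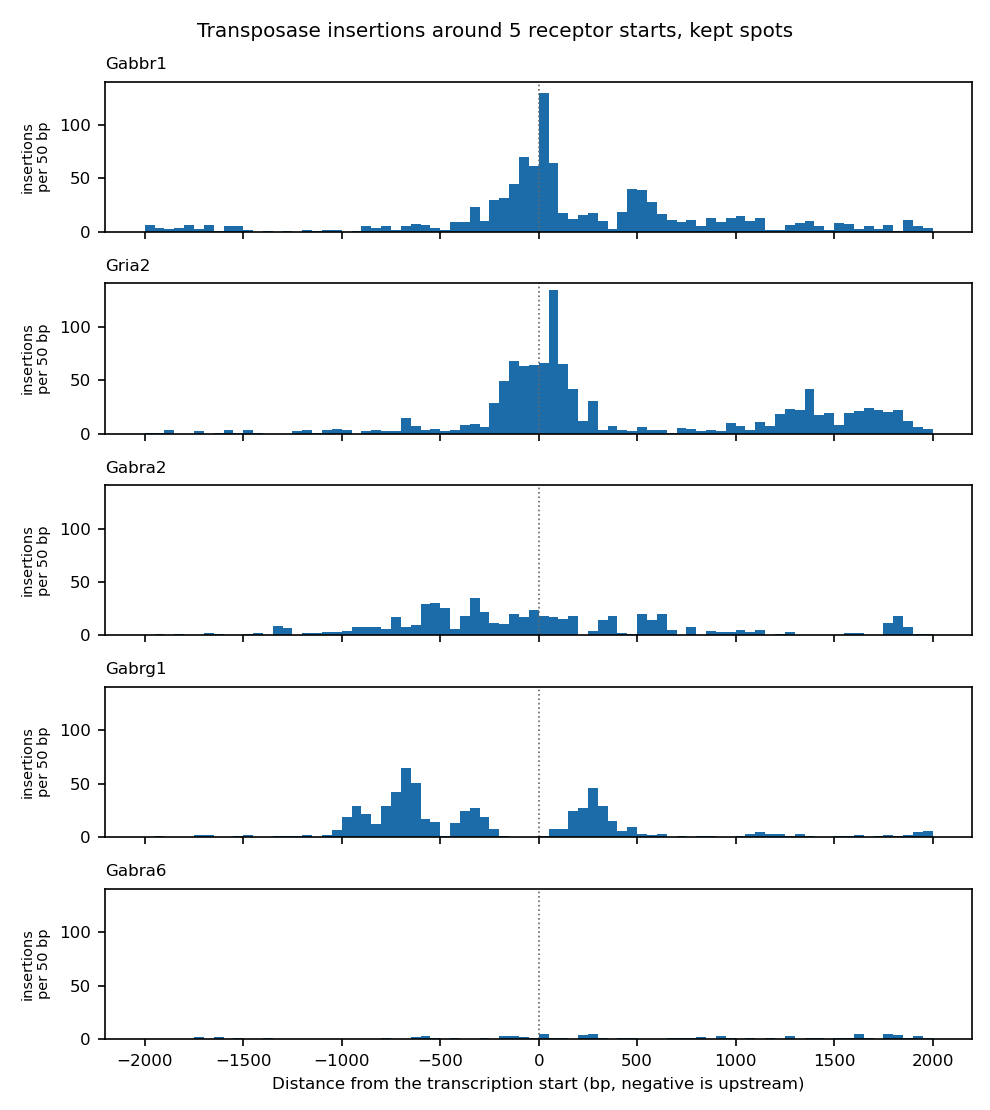
Transposase insertions per 50 bp around the start sites of 5 receptor genes in the kept spots, with the distance in bp and upstream to the left. Gabbr1 and Gria2 peak next to the start, Gabrg1 has insertions on both sides of a gap that holds 2 insertions from -200 to 50 bp, and Gabra6 has few anywhere.

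To follow the receptors over the tissue without using clusters, spots that share the second barcode segment were summed into strips, whose order in the tissue is not known. Of 48 strips, 46 had at least 20000 UMIs, and these held 29800 to 305704 UMIs each. Glutamate receptors ranged from 4982 to 7755 CPM over the strips (median 6895) and GABA receptors from 1294 to 2647 CPM (median 1920). The lowest glutamate values were in strips rich in muscle RNA. In the 6 strips where the muscle list was above 10000 CPM, at 15065 to 21823 CPM, glutamate receptors were at 4982 to 5594 CPM, and in the other 40 at 5534 to 7755 CPM, which overlapped at the edge. GABA receptors were at 1294 to 1604 CPM in the 6 strips and at 1510 to 2647 CPM in the other 40. The neuron list was at 3336 to 4260 CPM in the 6 strips and at 3725 to 6505 CPM in the others.

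**Figure D5:**
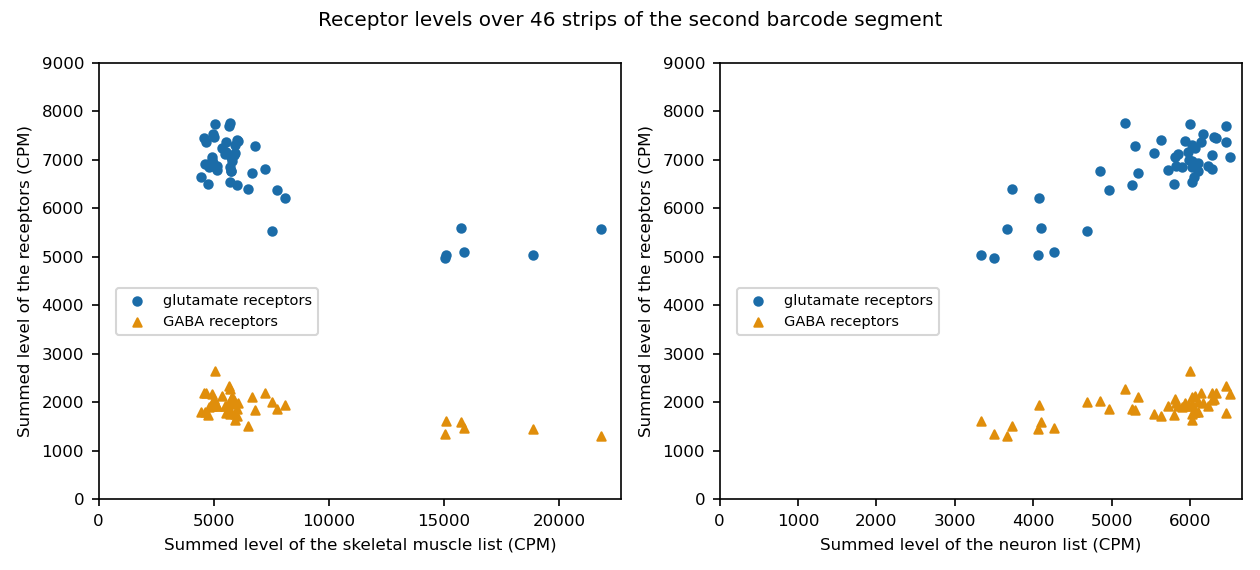
Summed level of the glutamate receptors (circles) and GABA receptors (triangles) in each of 46 strips, in CPM, against the skeletal muscle list (left) and the neuron list (right). The 6 strips with 15065 CPM or more of the muscle list hold glutamate receptors at 5594 CPM or less.

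Over the 46 strips the summed receptor level followed the neuron list with a rho of 0.68, as a description of sums from 1 library. Of the 35 members, 19 had a rho of at least 0.3 with the neuron list, against 11% of all genes. High values were those of Grm5 with 0.59, Grin3a with 0.53, Grin1 with 0.52 and Grin2b with 0.51. Along the first segment these were 0.36, 0.19, -0.0036 and 0.46 in the same order, and in the remaining spots 0.19, 0.11, 0.02 and 0.11, so that none of the 4 reached 0.3 in the remaining spots. Grm5 ranged from 158 to 712 CPM over the strips (median 496). Grin2b ranged from 784 to 1356 CPM (median 1158). Both ranges include the counting error of single strips, which is largest in shallow strips, and no interval was worked out for them. With a list of GABAergic neuron genes the summed rho was 0.52, but 0.35 without the 6 muscle-rich strips, 0.25 in the remaining spots and 0.22 over the 50 strips of the first segment. In the same order of settings, the rho with a list of glutamatergic neuron genes was -0.02, -0.21, -0.29 and -0.06. With the forebrain list it was -0.27, -0.41, -0.38 and -0.02, and with the hindbrain and midbrain list -0.01, -0.16, 0.02 and -0.39. Without the 6 muscle-rich strips the summed rho with the neuron list was 0.53, and in the remaining spots alone it was 0.16 over 37 strips. Over the 50 strips of the first segment this rho was 0.51. Without those 6 strips, 6 of 35 members had a rho of 0.3 or more (7.54% of all genes), and in the remaining spots 1 of 35 (5.45%). Along the first barcode segment it was 6 of 35 (3.43%).

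Partners of the receptors were measured as 48 genes on 5 lists. Of 13 auxiliary genes of AMPA and kainate receptors with 100 or more UMIs, 3 were at least 1.5-fold higher in the remaining spots than in the Myh3 region and none lower (7.88% and 9.04% of all genes). These were Cnih2, an AMPA receptor auxiliary subunit, with a ratio of 1.63 (1.36 to 1.97), and Neto1 and Neto2, auxiliary subunits of kainate receptors, with 1.53 (1.09 to 2.19) and 1.51 (1.25 to 1.83). Shisa9 and Cacng4, which modify AMPA receptor gating and trafficking, had most UMIs of this list, at 203 and 199 CPM, with ratios of 1.17 and 1.30. None of 16 postsynaptic scaffold genes passed the limit in either direction. Dlg2, a scaffold of NMDA receptors, was at 1264 CPM with a ratio of 1.27, and Grip1, which binds AMPA receptor tails, at 780 CPM with 1.15.

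Of 11 scaffold and auxiliary genes of GABA receptors, 1 was higher and 1 lower, which is about the share of all genes (7.88% and 9.04%). The lower one was Gphn, which encodes gephyrin, the scaffold of inhibitory synapses that also makes the molybdenum cofactor in other tissues. It was at 515 CPM with a ratio of 0.599 (0.557 to 0.645), below 1, whereas the GABA-A receptors it anchors had 1.33 (1.255 to 1.40). Gabarap, which takes part in receptor transport and autophagy, was at 285 CPM with a ratio of 1.08. The higher one was Lhfpl4, a partner of synaptic GABA-A receptors, with a ratio of 1.66 (1.34 to 2.07). Both chloride transporters were expressed, the importer Slc12a2 at 54.2 CPM (49.4 to 59.3) and the exporter Slc12a5 at 80.6 CPM (74.7 to 86.8). Their ratios were 0.933 (0.721 to 1.22) and 1.27 (1.01 to 1.61). None of 4 glycine receptor genes passed the limit. Glra2, the embryonic alpha subunit, was at 58.8 CPM and Glrb, the beta subunit, at 38.9 CPM.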

How the data were processed

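SPARC-seq was run by the authors on brain tissue from E18.5 embryos, giving 1 RNA and 1 ATAC library. Per the file headers, the authors used cellranger-arc 2.0.1 with a mouse mm10 reference, and the submitters' processing notes also name Seurat 4.0. The deposited matrix holds raw UMI counts for 32285 genes over 1993 barcodes, and the deposited fragment file lists 52942843 fragments of 2500 barcodes, of which the kept spots hold 46993860. How the barcodes were chosen, whether intronic reads were counted and which strand setting was used are not given in the sources used here. Peak counts of the matrix were not used. The grid was inferred from the barcodes alone.

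A spot was kept if 500 to 6000 genes were detected in it and mitochondrial genes took no more than 20% of its UMIs, which held for 1992 of 1993. CPM is UMIs scaled to 1000000 over the same spots. Promoter fragments overlap 1 kb on each side of the most upstream start of the principal transcripts (GENCODE M21, GRCm38), which gave 32158 genes a start. For regions, counts without members and partner genes were scaled to 10000 and log-transformed in scanpy 1.11.5, with 2000 variable genes, 30 components, 15 neighbours and Leiden resolution 1.0, seed 0. A cluster took the name Myh3, Wfdc2 or Gh where that gene was among its 10 leading genes by fold (pseudocount 20 CPM). The limits of 1.5-fold, index 1.1 and rho 0.3 carry no test. Intervals are exact Poisson (counts), Clopper-Pearson (shares) and conditional binomial (ratios), from SciPy 1.17.1. The counting functions were tested on simulated data. Members with at least 100 UMIs are named with their level, except a few that are not reported here although sums and counts include them, and of each partner list the 2 genes with most UMIs, with both chloride transporters. Lhfpl4, Gphn, Cnih2, Neto1 and Neto2 were named after their values were seen. Members and lists were chosen with earlier results of these data known.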

Additional observations from a re-analysis of the deposited data

Results flagged for a closer look

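The fragment file held 507 barcodes that the RNA matrix does not list, with 5833396 fragments, and none of the comparisons above used them. Their fragments near receptor start sites numbered 716, above the 3 that a count of 0 allows, out of 509161 promoter fragments of all genes. Per 1000000 promoter fragments this was 1406 (1305 to 1513), against 1438 (1408 to 1468) in the kept spots, a ratio of 0.978 (0.905 to 1.06). Receptor promoters therefore took a share of fragments there that counting error does not separate from that of the kept spots.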

How the results depend on the processing

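No paired analysis was possible because each assay has 1 library. The summed level of 8583 CPM became 9048 CPM without Gm42418 in the total and 8646 CPM without mitochondrial genes. On the scales per kb of exons and per kb of span, the share of the subunit with most UMIs was 47.4% and 27.1% for Gria1, 18.6% and 7.83% for Grik2, 68.9% and 51.2% for Grin2b, 98.8% and 91.3% for Grin3a, 98.3% and 65.5% for Grm3, 76.0% and 42.2% for Grm7, 24.9% and 34.6% for Gabra2, and 52.8% and 93.6% for Gabbr1. In the remaining spots 2 of 33 members reached the dispersion limit (7.77% of all genes). With a fold of 2 in RNA, 0 of 35 were higher (1.11%). The correlation of UMIs with promoter fragments was 0.199 in the members with at least 100 UMIs. Members with a rho of 0.3 numbered 6 along the first segment, 1 in the remaining spots and 6 without the muscle-rich strips; the last setting, and the limit of 1000 UMIs for the dispersion, were chosen after the data had been seen. Other clusterings gave 6 to 8 of 35 members at 1.5-fold in RNA (7.42% to 8.18% of all genes) and 26 to 28 of 38 at promoters (11.4% to 12.2%). With all 47 members, 9 were higher (27%) and 6 lower (23.5%) in RNA. Any gene with UMIs in the remaining spots and none in the Myh3 region was counted as higher, such as Gabra6 with 1 UMI. At promoters, 18 of 24 members were higher with a window of 500 bp (12.2%), 26 of 44 with 2 kb (10.4%) and 28 of 43 with insertions counted (13%). Summed ratios were 1.33 to 1.35 in RNA and 1.67 to 1.78 at promoters. The 438 ratios of single members under other clusterings stayed within the counting interval of the reported value. Depth limits the 12 members with 1 to 39 UMIs, whose levels and ratios have wide intervals.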
